A study of Mus musculus with 23 samples.

Results

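Chromatin at 5 glial genes was described across 4 subregions of the adult mouse cortex: Olig1, Olig2 and Sox10, transcription factors of the oligodendrocyte lineage; Mbp, which encodes myelin basic protein, a structural protein of the myelin sheath; and Gfap, which encodes the intermediate filament protein of astrocytes. Members were the enriched regions of the deposited lists that overlapped 4 windows in mm9. The windows were placed by gene, with earlier results of these data known: chr16:91170000-91330000 (Olig1 and Olig2), chr15:78940000-79040000 (Sox10), chr18:82590000-82800000 (Mbp) and chr11:102710000-102800000 (Gfap). The members numbered 221 of the 334051 regions in the 8 full lists, and 82 of these 221 were also among the 193126 regions of the 8 enhancer lists. The labels describe tissue of C57BL6J mice at postnatal day 56 from 2 midline areas, namely ACC (anterior cingulate cortex) and RSC (retrosplenial cortex), and from both entorhinal divisions, namely LEC (the lateral one) and MEC (the medial one), with no genotype or treatment differing between them. The assay was chromatin immunoprecipitation and sequencing of 2 histone marks, H3K27ac and H3K4me2, in whole dissected tissue, so neurons and glia were measured together.

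Oligodendrocytes wrap axons in myelin and arise from precursors in which OLIG2 and SOX10 set the lineage; SOX10 also acts on the myelin genes, Mbp among them, as the cells mature. Olig1 and Olig2 are neighbouring genes of 1 family of basic helix-loop-helix factors, and in the cortex they are largely markers of this lineage, while GFAP is strong in astrocytes of white matter and near vessels and low in many grey matter astrocytes. H3K27ac is found at active promoters and enhancers, and H3K4me2 at promoters and enhancers whether or not they are active. In whole tissue, fewer cells of a type and less mark per cell cannot be told apart.

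Each list stands for a subregion and mark. The labels describe 2 libraries behind each, except MEC H3K4me2 with 1, but the lists hold no value per library, no enrichment and no depth, so there is no replicate error and no test between subregions, and no difference below was tested. The lists differed in length: the full H3K27ac lists held 48266 regions in ACC, 41584 in RSC, 42136 in LEC, compared with 22848 in MEC, and the full H3K4me2 lists 54419, 46552, 48182 and 30064 in this order. Regions of a full list that were left out of its enhancer list are called excluded regions.

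The 4 windows together spanned 560 kb. Full-list H3K27ac regions in them numbered 33 in ACC, 28 in RSC, 28 in LEC, with 19 in MEC, and covered 35.5% of the bases in ACC, 31.4% in RSC, 31.4% in LEC, compared with 12.5% in MEC. Across the whole genome the same lists covered 6.91% in ACC, 5.49% in RSC, 5.71% in LEC, with 2.49% in MEC. The windows together were thus covered 5.15 times as densely as the genome in ACC, 5.72 in RSC, 5.50 in LEC, compared with 5.03 in MEC, but the windows differed. At Olig1 and Olig2 this ratio was 3.40, 3.92, 2.56 and 1.43 in the same order, at Sox10 7.34, 7.36, 8.23 and 5.40, at Mbp 6.43, 7.94, 7.01 and 8.14, and at Gfap 2.82, 1.94, 4.19 and 3.74. MEC had the lowest ratio at Olig1 and Olig2 and at Sox10 and the highest at Mbp, where 42.5 of its 70.0 kb lay. The genome's share also counts stretches with no region. Stretches of each window's length were also laid end to end over the genome, and those with no H3K27ac region stayed in the count. At the Olig1 and Olig2 length the empty ones made up 36.9% in ACC to 49.8% in MEC. At the Sox10 length it was 44.5% to 59.1%, and at the Gfap length 46.2% to 61.3%. Of all stretches, those covered at least as much as Olig1 and Olig2 made up 8.71%, 6.31%, 12.7% and 21.9% in the same order. For Sox10 they made up 1.61%, 1.7%, 1.08% and 4.16%, and for Gfap 11.5%, 16.7%, 6.34% and 7.81%. Mbp is given below. For H3K4me2 the regions numbered 38 in ACC, 30 in RSC, 35 in LEC, compared with 10 in MEC. They covered 24.3%, 20.6%, 24.1% and 2.78% of the bases, which was 3.94, 4.25, 4.51 and 1.31 times the genome's share in this order. By window the MEC ratio was 0.783 at Olig1 and Olig2, 1.86 at Sox10, 1.04 at Mbp and 2.31 at Gfap, where RSC had 2.03. Stretches covered by H3K4me2 at least as much as Olig1 and Olig2 made up 8.37%, 3.09%, 4.49% and 38.7% in the same order. For Sox10 it was 3.35%, 5.17%, 3.39% and 20.7%, and for Gfap 8.0%, 17.4%, 7.68% and 16.5%. The MEC H3K4me2 list is the shortest of this mark and rests on 1 library, and the part of either in its coverage was not tested.

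**Figure D1:**
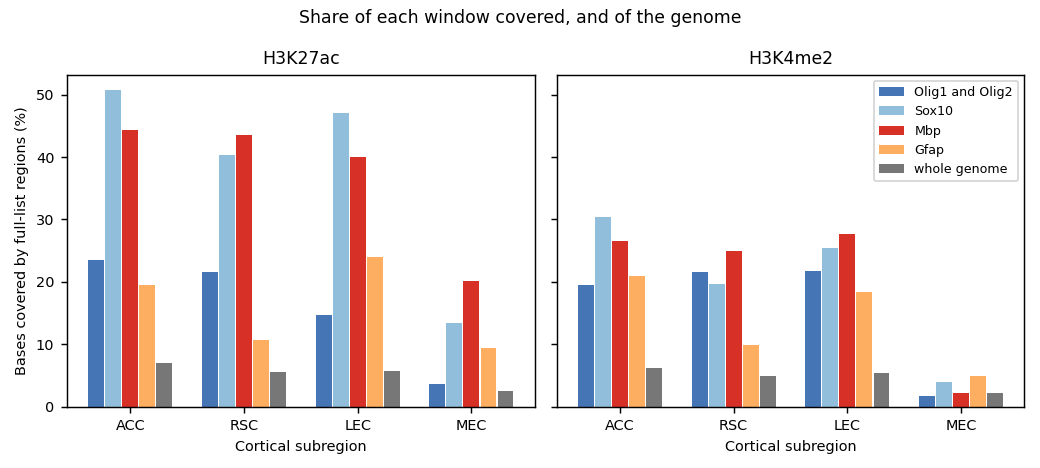
Percentage of bases covered by full-list regions (vertical axis) in the windows of Olig1 and Olig2, Sox10, Mbp and Gfap and in the whole genome (grey), for each cortical subregion (horizontal axis) and mark (panels). Each bar is 1 list with no replicate error: the H3K27ac bars of Sox10 and Mbp reach 40.0% to 50.7% in ACC, RSC and LEC, while in MEC H3K4me2 every window lies at or below 4.89%.

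No mm9 annotation was used here. Gene starts were therefore placed to the nearest 1 kb from general knowledge of mm9, and their positions were not checked against an annotation. Of the regions within 1 kb of a start 37 of 37 were excluded regions, against 62.9% of all regions in the windows and 42.2% of all full-list regions. This does not test the positions closely, since in the Sox10 window every H3K27ac region of ACC, RSC and LEC was excluded. Mbp has 2 starts, an upstream one for the long Golli transcripts and a downstream one for the short transcripts of the myelin proteins, which makes 6 starts. In the RefSeq table of GRCm38.p6, the coding neighbours were Olig1 after Olig2, Polr2f before and Pick1 after Sox10, Galr1 before and Zfp236 after Mbp, and Fam187a before and Kif18b after Gfap, so the Sox10 and Gfap windows also hold other genes. H3K27ac regions lay at 6 of the 6 starts in ACC, 5 in RSC, 5 in LEC, with 2 in MEC. H3K4me2 regions lay at 6 in ACC, 5 in RSC, 6 in LEC, compared with 1 in MEC. How many starts of other genes the same lists mark was not counted, so these counts have no background. Whether 2 and 1 are few for the shorter MEC lists is therefore not known. With every H3K27ac list reduced to its 22848 widest regions, the length of the MEC list, ACC kept 6, RSC 5 and LEC 5. The narrowest regions kept were 2575 bp in ACC, 2200 bp in RSC and 2375 bp in LEC. Every H3K27ac region at a start in these lists was wider, so none could drop out. The part of depth in the MEC difference was not tested. With the H3K4me2 lists reduced likewise to 30064 regions, ACC kept 6 and RSC 5, and LEC had 5 in place of 6, without Gfap.

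**Figure D2:**
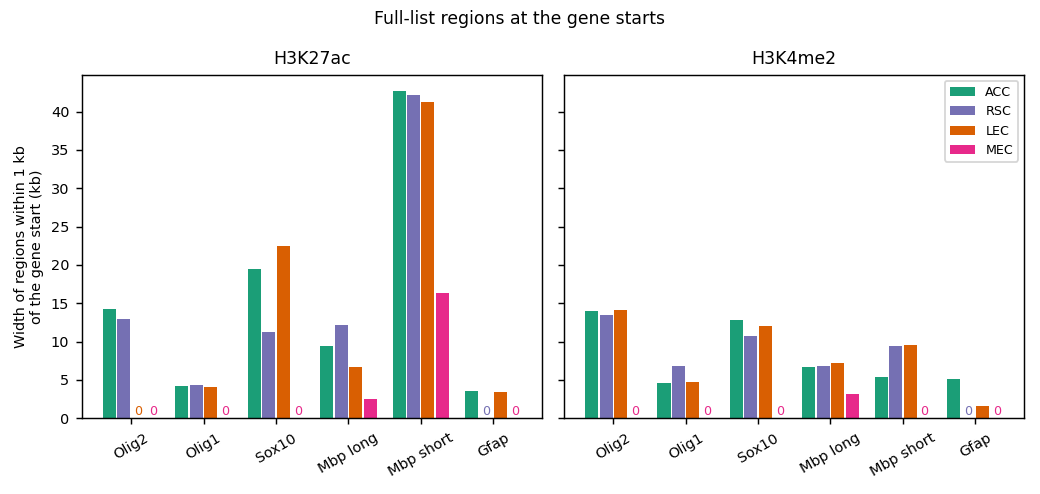
Summed width in kb (vertical axis) of the full-list regions within 1 kb of each of 6 gene starts (horizontal axis), by mark (panels) and subregion (colours), with a printed 0 where a list had no such region. The short Mbp start carries the widest H3K27ac regions (41.3 to 42.7 kb in ACC, RSC and LEC, 16.4 kb in MEC), and MEC has 0 at Olig2, Olig1, Sox10 and Gfap in both marks.

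Olig2 and Gfap were the genes at whose starts ACC, RSC and LEC differed from each other, and the 250 bases before each start are given from RefSeq (GRCm38.p6). These stretches were not placed in mm9, so whether a region covers them is not known. Olig2 lies on chromosome 16 (plus strand) and Gfap on chromosome 11 (minus strand); 2 of the 5 genes were matched in the promoter table. Capitals mark the matches to the motifs searched on both strands, which were CANNTG (the E-box of basic helix-loop-helix factors) with its forms CAGATG and also CATATG, then the core of SOX sites (ACAAT), that of STAT factors (TTCNNNGAA) and the TATA box (TATAAA).
Olig2: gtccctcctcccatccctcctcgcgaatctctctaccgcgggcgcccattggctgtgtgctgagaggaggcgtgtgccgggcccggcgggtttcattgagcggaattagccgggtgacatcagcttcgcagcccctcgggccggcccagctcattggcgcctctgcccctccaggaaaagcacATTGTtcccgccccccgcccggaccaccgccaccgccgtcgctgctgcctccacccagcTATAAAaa
Gfap: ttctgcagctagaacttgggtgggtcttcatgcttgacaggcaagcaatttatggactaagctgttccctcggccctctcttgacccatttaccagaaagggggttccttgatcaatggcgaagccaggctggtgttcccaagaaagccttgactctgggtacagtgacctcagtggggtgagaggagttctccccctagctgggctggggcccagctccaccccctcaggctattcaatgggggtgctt
The Olig2 stretch was 66.8% G and C, a share reached by 14.2% of the 32851 promoters in the table. It held 1 match to ACAAT, found in 27.7% of all promoters, and 1 to TATAAA, found in 12.4%. The Gfap stretch was 55.6% G and C, reached by 39.9% of promoters, and held no match to any of the 6 motifs. CANNTG was absent from both and present in 66.2% of all promoters, CAGATG in 14.4%, CATATG in 3.46% and TTCNNNGAA in 7.02%. A match is a description of the letters and not a bound site.

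At Olig2, which directs precursors to the oligodendrocyte fate, both marks formed wide regions over the gene. In H3K27ac the region was 14.3 kb wide in ACC (chr16:91220601-91234900) and 13.0 kb in RSC (chr16:91222251-91235225). LEC had no H3K27ac region there, the nearest being 31.5 kb from the start, and MEC had 1 of 1.68 kb, chr16:91228176-91229850, which began 2.17 kb past the start. In H3K4me2 the region was 14.0 kb wide in ACC, 13.5 kb in RSC and 14.1 kb in LEC, and the nearest MEC region was 36.4 kb away. LEC thus carried H3K4me2 over Olig2 as broadly as ACC and RSC while listing no H3K27ac. Full-list H3K27ac regions of the subregions were merged where they overlapped, and of the merged elements in the 4 windows that held an excluded region and came from ACC and RSC, 12 of 14 also came from LEC, against 84.8% genome-wide.

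Olig1, needed for myelin repair and expressed in the same lineage, had H3K27ac regions of similar width in 3 subregions: ACC (4.17 kb), RSC (4.33 kb) and LEC (4.12 kb). Its H3K4me2 regions were 4.58 kb wide in ACC, 6.83 kb in RSC and 4.75 kb in LEC. In MEC the nearest regions were 3.55 kb (H3K27ac) and 6.83 kb (H3K4me2) from the start. The Olig1 regions were thus narrower than those at Olig2 in each of the lists that had both.

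Between the genes, 1 enhancer element carried H3K27ac in all 4 subregions, chr16:91259076-91267975. Its regions were 5.17 kb wide in ACC, 8.88 kb in RSC, 8.28 kb in LEC, compared with 4.03 kb in MEC, and it also carried H3K4me2 in all 4 (chr16:91262376-91267450). It was the only enhancer region in the MEC H3K27ac list within this window. Enhancer elements on either side, chr16:91190476-91194500 and chr16:91301001-91307625, carried H3K27ac in ACC, RSC and LEC and not in MEC. The second of these had H3K4me2 in all 4 subregions, as did chr16:91313876-91315525, where ACC alone had H3K27ac. By bases, ACC and LEC shared 87.1% of their H3K4me2 in this window and 47.8% of their H3K27ac, against 57.7% and 54.1% genome-wide.

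At Sox10, whose product activates myelin genes, H3K27ac covered 50.7% of the window in ACC, 40.4% in RSC, 47.0% in LEC, with 13.4% in MEC. The region over the start was 19.4 kb wide in ACC (chr15:78981176-79000625), 11.2 kb in RSC (chr15:78989926-79001150) and 22.5 kb in LEC (chr15:78985426-79007925). These ranked 670th of 48266, 1468th of 41584 and 233rd of 42136 by width. MEC had no region over the start in either mark, and its nearest regions were 22.5 kb (H3K27ac) and 21.9 kb (H3K4me2) away. H3K4me2 formed 1 region in ACC (12.8 kb) and 1 in LEC (12.1 kb), and in RSC 2 regions of 6.45 and 4.33 kb on either side of the start.

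MEC was not bare across this window. Excluded elements at chr15:78938051-78942650 and chr15:78970601-78972700, on the side where Micall1 and Polr2f lie, carried H3K27ac in MEC at 2.93 and 1.93 kb, and H3K4me2 in all 4 subregions. On the other side a wide element, chr15:79020576-79047900, carried H3K27ac in all 4 subregions and ran past the window. It was 26.4 kb wide in ACC and 25.2 kb in LEC, split in RSC, and in MEC it was 3 regions of 5.53, 3.08 and 6.70 kb. The first of these, chr15:79020651-79026175, was the only H3K27ac enhancer region listed in the window. The others there were excluded in ACC, RSC and LEC, so enhancer lists alone would have shown 0 regions in these 3 subregions and 1 in MEC.

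Mbp had the widest regions of the 4 windows in H3K27ac. The region that held the short start was 42.7 kb wide in ACC (chr18:82689276-82731975), 42.1 kb in RSC (chr18:82689626-82731750) and 41.3 kb in LEC (chr18:82690301-82731600), with edges that differed by about 1 kb or less. By width it ranked 91st of 48266 regions in ACC, 45th of 41584 in RSC and in LEC 33rd of 42136. In MEC the same stretch was split into regions of 2.88, 12.9 and 16.4 kb, of which the last, chr18:82714126-82730525, held the start and ranked 106th of 22848. MEC thus listed its Mbp region among the widest 0.464% of its regions, compared with 0.189% for the ACC region, 0.108% for RSC and 0.0783% for LEC.

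H3K27ac covered 44.4% of the Mbp window in ACC, 43.5% in RSC, 40.0% in LEC, compared with 20.2% in MEC. Relative to the genome's share, MEC was as dense here as the others. Laid end to end, the genome held 12585 stretches of the same length, those with no region included. Of these, 1.57% were covered at least as much in ACC, 0.763% in RSC, 0.993% in LEC, with 1.1% in MEC. H3K4me2 went another way: it covered 26.6% in ACC, 24.9% in RSC, 27.6% in LEC, compared with 2.2% in MEC, where 35.1% of the stretches were covered at least as much. MEC had 2 H3K4me2 regions in the window, 1 of 3.20 kb at the long start and 1 of 1.40 kb, chr18:82662001-82663400. The short start had H3K4me2 regions within 1 kb in ACC (5.35 kb), RSC (9.45 kb) and LEC (9.57 kb), and the nearest in MEC was 60.6 kb away.

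The long start was marked in all 8 full lists, the sole one of the 6 starts for which this held. H3K27ac regions there were 9.45 kb wide in ACC, 12.2 kb in RSC, 6.72 kb in LEC, with 2.55 kb in MEC. H3K4me2 regions were 6.70, 6.78, 7.17 and 3.20 kb wide in this order. Between the 2 starts, an enhancer element at chr18:82653576-82666200 carried H3K27ac in all 4 subregions, and its core at chr18:82660076-82664850 carried H3K4me2 in all 4. A further one, chr18:82675526-82679700, carried both marks in ACC, RSC and LEC and neither in MEC. The widest H3K4me2 element of the window, chr18:82694951-82709950, lay inside the wide H3K27ac region and was 13.4 kb wide in ACC, 11.8 kb in RSC and 15.0 kb in LEC. MEC had no H3K4me2 on it and an H3K27ac enhancer region of 12.9 kb, chr18:82698926-82711850, of which 11025 bp lay on this element.

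**Figure D3:**
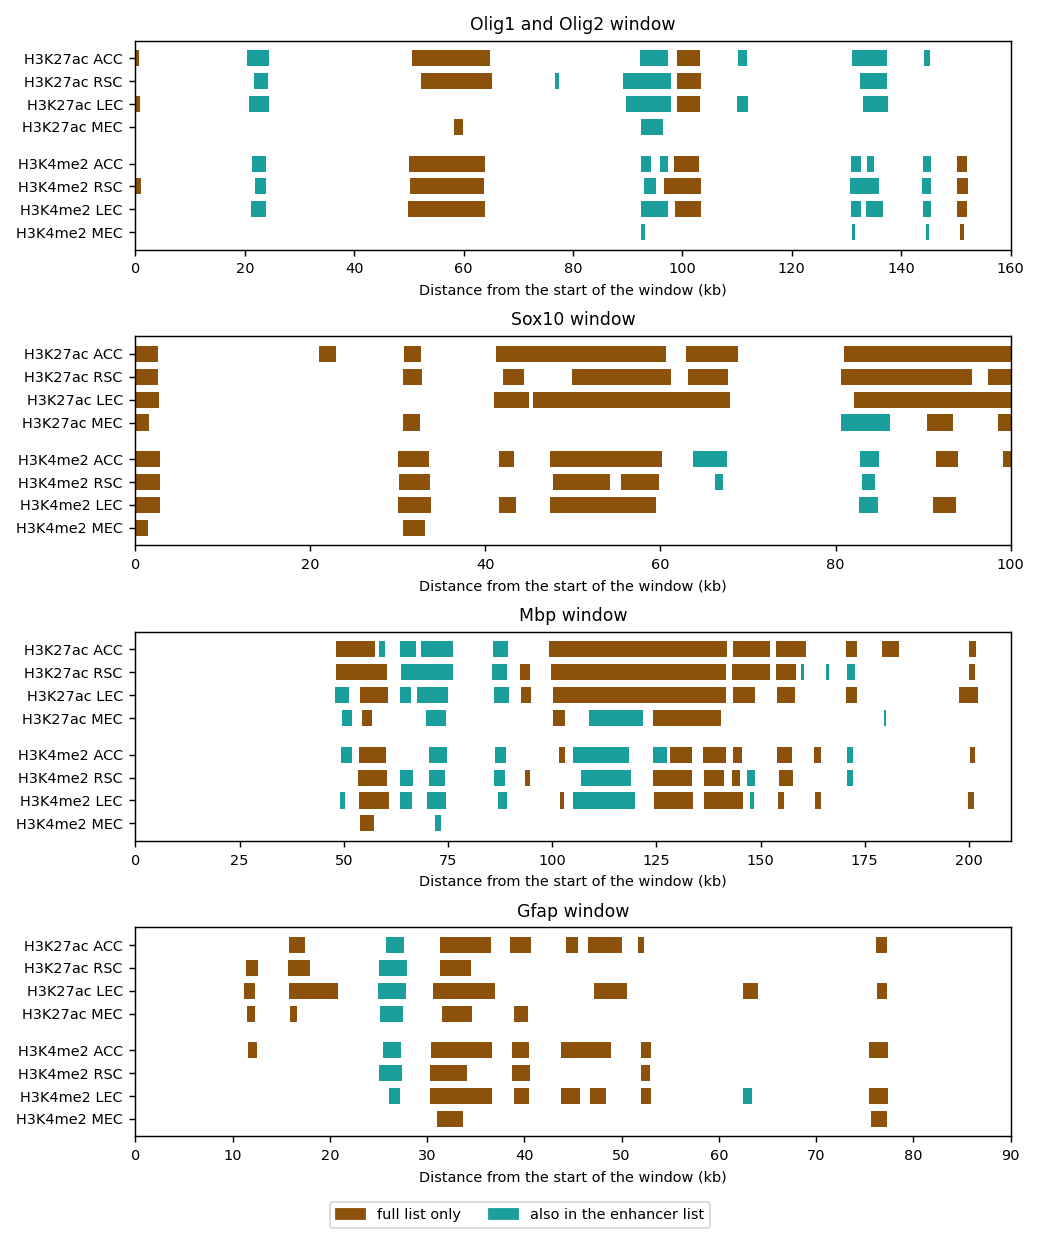
Positions of the full-list regions in the windows of Olig1 and Olig2, Sox10, Mbp and Gfap, with distance from the start of the window in kb on the horizontal axis and 1 row per mark and subregion. Blue-green bars are regions also in the enhancer list and brown bars are excluded regions: the Mbp window has a brown H3K27ac bar of 41.3 to 42.7 kb in ACC, RSC and LEC that is split in MEC, and the Gfap window has short bars only.

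Gfap had the least coverage of the 4 windows in ACC and RSC in H3K27ac, at 19.5% and 10.7%, with 23.9% in LEC and 9.31% in MEC. Its start was marked in ACC and LEC and in neither RSC nor MEC, in both marks. H3K27ac regions there were 3.50 kb wide in ACC (chr11:102756576-102760075) and 3.48 kb in LEC (chr11:102757126-102760600), which placed them within the widest 32.4% and 32.2% of their lists. H3K4me2 regions were 5.10 kb wide in ACC and 1.57 kb in LEC, where the region fell under the narrowest kept (1600 bp) once the list was reduced to the MEC length. In RSC the nearest regions were 13.5 kb (H3K27ac) and 4.03 kb (H3K4me2) away, and in MEC 7.65 kb and 14.3 kb. Of the elements in the 4 windows that held an excluded region and came from ACC and LEC, RSC also had 12 of 15 in H3K27ac, against 78.4% genome-wide, and 13 of 20 in H3K4me2, against 81.9%.

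Of the 10 H3K27ac elements in the Gfap window, 3 were carried by all 4 subregions, 1 by 3 of them, 3 by a pair and 3 by 1. ACC and RSC shared 33.1% of their H3K27ac bases in this window and 41.8% of their H3K4me2 bases, against 52.8% and 55.5% genome-wide. An enhancer element at chr11:102734951-102737875 carried H3K27ac in all 4 subregions, with regions 1.88 kb wide in ACC, 2.88 kb in RSC, 2.88 kb in LEC, compared with 2.35 kb in MEC, and H3K4me2 in ACC, RSC and LEC. The excluded element chr11:102740601-102746975, on the side of Ccdc103 and Eftud2, carried both marks in all 4 subregions and was the widest of the window in both. LEC alone had both marks at chr11:102772451-102774075, where its H3K27ac region was excluded and its H3K4me2 region, 0.875 kb wide, was an enhancer region.

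Merged over the subregions, the windows held 35 H3K27ac elements from the full lists, of which 9 were carried by all 4 subregions (25.7%, against 19.7% of all 61632 elements), 9 by ACC, RSC and LEC without MEC (25.7%, against 16.7%) and 7 by 1 subregion (20%, against 30.3%). Of 38 H3K4me2 elements, 9 were carried by all 4 (23.7%, against 21.7% of 71891), 12 by ACC, RSC and LEC without MEC (31.6%, against 16.4%) and 5 by 1 subregion (13.2%, against 29.5%). Elements that held an excluded region and were carried by ACC, RSC and LEC were also carried by MEC in 6 of 12 cases in H3K27ac, against 64.5% genome-wide, and in 6 of 13 in H3K4me2, against 77.8%. For those carried by ACC and RSC in H3K4me2, 13 of 13 were also carried by LEC, against 85.9%. These are small counts in 4 neighbourhoods, and neighbouring elements are not independent.

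In the enhancer lists, the windows held 17 H3K27ac elements. Of these, 3 were carried by all 4 subregions (17.6%, against 9.72% of 42115), 1 each in the Olig1 and Olig2, Mbp and Gfap windows, 3 by ACC, RSC and LEC without MEC (17.6%, against 14.0%) and 9 by 1 subregion (52.9%, against 43.2%). The 9 included the MEC regions at Sox10 and Mbp whose counterparts elsewhere were in the full lists as excluded regions. The same held for chr18:82648526-82649850 in ACC, and for chr18:82749751-82750550 and chr18:82760651-82762600 in RSC. Carriage by 1 subregion in the enhancer lists thus does not mean absence from the other full lists. Of 16 H3K4me2 enhancer elements, 4 were carried by all 4 subregions (25%, against 9.91% of 52088), 5 by ACC, RSC and LEC without MEC (31.2%, against 16.9%) and 2 by 1 subregion (12.5%, against 41.0%).

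As a share of H3K27ac bases, the marks overlapped in the windows about as much as genome-wide in ACC, RSC and LEC, and less in MEC. Of the H3K27ac regions in the windows, 27 of 33 in ACC overlapped an H3K4me2 region of ACC (81.8%, against 69.1% of the whole list), 20 of 28 in RSC (71.4%, against 64.5%) and 22 of 28 in LEC (78.6%, against 70.3%). In MEC it was 6 of 19 (31.6%, against 62.2%). By bases, H3K4me2 lay on 61.4% of the H3K27ac bases of the windows in ACC, 55.6% in RSC, 57.5% in LEC, with 14.6% in MEC, against 59.2%, 53.5%, 58.6% and 43.1% genome-wide. The MEC share was lowest in the Mbp window, at 9.29%, where ACC had 56.5%, RSC 57.1% and LEC 64.4%. Of the H3K4me2 bases in all windows together, H3K27ac lay on 89.7%, 84.9%, 75.1% and 65.7% (order: ACC, RSC, LEC, MEC). Genome-wide it was 66.3%, 60.7%, 62.7% and 50.7%, so this share was higher in the windows, MEC included. By window it was lower in LEC (43.2%) and MEC (28.3%) at Olig1 and Olig2, and in RSC (58.2%) and MEC (49.4%) at Gfap. In MEC, 15.6 kb of H3K4me2 (1 library) stood against 70.0 kb of H3K27ac, which limits its share of H3K27ac bases.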

How the data were processed

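Histone marks were measured by chromatin immunoprecipitation and sequencing in 4 cortical subregions; the labels describe 23 libraries, 8 of them inputs. Per the labels' protocols, subregions were dissected from both hemispheres in sections of 500 µm. The submitters' processing notes name Bowtie 1.1.1, bedtools 2.19.0 and mm9. How regions were called, at which threshold and from which replicates was not given in the sources used here. Of 17 deposited lists 16 were used, since 1 repeats another. In 14 of the deposited lists each region has a score, which is its width in bp (0 exceptions) and no enrichment; the 3 MEC H3K27ac lists, the repeat among them, give starts and ends alone. The other deposited values are region starts and ends, given here 1-based.

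Regions were assigned to a window at 1 bp of overlap and clipped to it for covered bases. Regions of different subregions that overlapped were merged into elements (Python 3.11.15, numpy 2.4.6, counts equal to those of bedtools 2.31.1, and tested on simulated data). The genome was taken as 2640.4 Mb, to the last region of each chromosome. No test was made, since no list holds values per library; the depth is unknown. Described were the 5 genes, the widest elements, excluded elements in all 4 subregions and both marks, enhancer elements in all 4 subregions and those with both marks in 1. The members, windows, gene starts and alternatives were chosen with earlier results of these data known. Other glial and neuronal genes were not analysed here, as they could not be placed in mm9. Promoter sequences come from RefSeq (GRCm38.p6), whose gene table served for names and neighbours only.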

Additional observations from a re-analysis of the deposited data

How the results depend on the processing

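Of 136 values under other settings, 109 kept within 1.5 times the reported count. Settings were fixed earlier, though with earlier results of these data known, except those for gene starts, which were chosen after seeing the data. Counting by midpoint or widening the windows by 20 kb on each side moved none of the values they were applied to, and narrowing them by 20 kb moved 1, the MEC H3K4me2 count, to 6 regions. Leaving out regions under 1000 bp also gave 6 there. With enhancer in place of full lists every count moved. For H3K27ac there were 10 regions (36800 bp) in ACC, 10 (39475 bp) in RSC, 9 (38375 bp) in LEC, with 7 (32600 bp) in MEC, and for H3K4me2 15 (46775 bp), 13 (40575 bp), 14 (45050 bp) and 4 (3325 bp); these lists are shorter by construction. With lists reduced to their widest regions, ACC H3K27ac had 20 regions, and enhancer elements carried by 1 subregion numbered 3 for H3K27ac and 4 for H3K4me2. Enhancer regions not merged gave 12 (H3K27ac) and 16 (H3K4me2) carried by 4 subregions, counted per region rather than per element. Full lists gave 9 and 9 elements carried by 4, and 5 H3K4me2 elements carried by 1. Requiring a region over the start itself gave 5 starts in ACC, 3 in RSC and 5 in LEC for H3K4me2. At the short Mbp start the nearest regions lay 0.4, 0.35 and 0.1 kb from the rounded point in this order. At Sox10 the nearest RSC region lay 0.5 kb away. Allowing 3 kb gave 3 starts in MEC H3K27ac in place of 2. No paired analysis was possible because the lists hold no value per library. The depth behind each list is unknown.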

Other observations

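Of the 73 full-list elements in the windows, 8 held both enhancer and excluded regions: 6 of 35 in H3K27ac and 2 of 38 in H3K4me2. The share of such elements over the genome was not counted, so these counts have no background and the marks are not compared. A pair of the 8 lay after Mbp. At chr18:82760501-82763150, after Mbp, the RSC H3K27ac region ended at 82762600 and was listed as an enhancer region, while the ACC region, which ended at 82763100, and the LEC region, which ended at 82763150, were excluded. At chr18:82769126-82773350 the MEC region, 0.6 kb wide, was an enhancer region and the ACC region, 4.22 kb wide, was excluded. Across all 8 full lists, 0 of 140925 excluded regions lay wholly inside an enhancer region of any list, 0 of 139 in the windows. A rule that leaves out every region overlapping fixed positions would give 0 by construction, so this count is no separate result. Of the H3K27ac enhancer elements in the windows carried by MEC alone, 3 of 3 overlapped excluded regions of other subregions. Genome-wide 2186 such elements were carried by MEC alone, and how many of them overlap excluded regions was not counted. Whether 3 of 3 is unusual is therefore not known.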
